A study of Homo sapiens with 36 samples.

Results

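The genes described here encode the subunits of the 5 complexes of oxidative phosphorylation (OXPHOS). They were chosen by symbol among protein-coding genes: the prefixes NDUFA, NDUFB, NDUFC, NDUFS and NDUFV without the NDUFAF assembly factors, SDHA to SDHD, UQCR, COX4I, COX5A, COX5B, COX6A, COX6B, COX6C, COX7A, COX7B, COX7C, COX8A, CYC1 and ATP5, and the 13 genes of the mitochondrial genome with the prefix MT-. This gave 104 of the 35490 genes with a value, of which 89 were nuclear, 13 mitochondrial, and 2 were nuclear readthrough genes (NDUFC2-KCTD14 and ATP5MF-PTCD1), which were kept out of sums and medians. Complex I had 37 nuclear and 7 mitochondrial members, complex II had 4 nuclear members, complex III had 10 and 1, complex IV had 18 and 3, and complex V had 20 and 2. NDUFA4 and NDUFA4L2, named for complex I, were counted with complex IV.

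RNA was measured in 2 human acute myeloid leukaemia lines of wild-type genotype, MOLM-13 and MONO-MAC-6, after 72 h with vehicle (DMSO) or with A9, which was given to MOLM-13 at 0.125 µM and to MONO-MAC-6 at 0.25 µM. A9 is a PROTAC, a molecule that brings a target protein to the cell's degradation machinery. The series' design text names IKK2 and NR4A1 as its targets, while its title names IKK1 and NR4A1. Each of the 4 groups had 9 libraries, 3 repeat libraries for each of 3 samples, and repeat libraries were averaged so that n = 3 in every group below. The labels do not say that the 3 samples came from separate cultures, so p-values measure the spread between these samples, which may be technical. Because the dose differed, line and dose cannot be told apart in any comparison between the lines. Levels are in TPM, which are corrected for transcript length and add up to a fixed total in each library. The depth behind them is unknown.

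Oxidative phosphorylation makes ATP in the inner mitochondrial membrane. Complexes I to IV pass electrons from NADH and succinate to oxygen and, except for complex II, pump protons, and complex V (ATP synthase) uses the proton gradient. Complexes I, III, IV and V are built from subunits of both genomes: the mitochondrial genome encodes core membrane subunits, transcribed inside the organelle as long precursors that are cut into single mRNAs, and the nucleus encodes the rest. Leukaemia cells of the myeloid lineage are known for their reliance on this pathway.

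Sequence bears on how well a few of these genes can be measured. MT-ND4L and MT-ND4 are adjacent reading frames on 1 bicistronic mRNA and share 7 bases, which are in capitals in the stretch of the GRCh38 mitochondrial genome that spans their junction (chrM:10740-10786, + strand, read from GENCODE 29 transcripts, all of it coding).
MT-ND4L/MT-ND4: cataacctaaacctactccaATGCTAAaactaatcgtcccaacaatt
The capitals hold the start codon of MT-ND4 and, in another frame, the last amino acid codon and stop codon of MT-ND4L. The annotation lists the pair as separate transcripts of 297 and 1378 bases. MT-ATP8 and MT-ATP6 overlap in the same way by 46 bases (transcripts of 207 and 681 bases). Nuclear copies of mitochondrial DNA share sequence with other members: of the 31-base words of MT-CO1, 66.7% also occurred in transcripts of other genes, against 63.7% for MT-ATP6, 56.9% for MT-ND2, 50.5% for MT-CO2, 16.1% for MT-ND4L and 3.48% for MT-ND3. Values of members with high shares depend on how the quantification divided shared reads.

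NRF1, GABPA (an ETS factor, also called NRF2 in this field) and YY1 are transcription factors known to act on many nuclear OXPHOS promoters. Their motifs were searched on both strands in RefSeq promoter windows (GRCh38.p14, 300 bases, 250 before to 50 after the start): GCGCATGCG for NRF1, CCGGAAGT for GABPA and AAGATGGCG for YY1. Of the 89 nuclear members 71 had a window (79.8%), under the 80% needed, so a comparison of motif shares with other genes is void. Among those 71, the NRF1 motif was found in 10, the GABPA motif in 10 and the YY1 motif in 8. Over the 15843 protein-coding genes of the table the shares were 2.76%, 6.19% and 2.74%, and over all 27305 genes 2.10%, 4.44% and 1.85%. One member each of complexes I, III, IV and V is shown, with the match in capitals (NRF1 motif in NDUFB4 and COX6A1, GABPA motif in UQCR11 and ATP5MD). Each had the smallest p in MONO-MAC-6 among those whose match and the 30 bases on each side lay wholly before the annotated gene.
NDUFB4: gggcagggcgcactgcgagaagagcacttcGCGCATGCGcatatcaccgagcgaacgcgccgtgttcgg
UQCR11: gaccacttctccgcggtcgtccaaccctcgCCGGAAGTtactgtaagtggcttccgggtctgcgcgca
COX6A1: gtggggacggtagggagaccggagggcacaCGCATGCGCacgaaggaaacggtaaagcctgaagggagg
ATP5MD: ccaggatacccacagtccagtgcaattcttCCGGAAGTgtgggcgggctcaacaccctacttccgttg
The stretches lie at chr3:120596147-120596215, + strand (NDUFB4), chr19:1605542-1605609, - strand (UQCR11), chr12:120437864-120437932, + strand (COX6A1) and chr10:103396598-103396665, - strand (ATP5MD), and are written 5′ to 3′ on the gene's strand. A match describes letters only. The factors themselves had values of several TPM: NRF1 was at 7.16, 10.8 and 10.8 TPM with DMSO and 10.5, 10.2 and 10.4 TPM with A9 in MONO-MAC-6, and GABPA at 5.71, 11.4 and 10.3 TPM with DMSO and 10.7, 10.8 and 10.6 TPM with A9. Both were lowest in DMSO sample 1.

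The cells matched their labels in part. Of 8 myeloid genes, SPI1, CD33, LYZ, MPO and ITGAM were above 2 TPM in every sample, PTPRC was under 1 TPM in 1 sample, CSF1R stayed under 2 TPM, and CD14 was under 1 TPM in MOLM-13. CD3E, MS4A1 and HBB, markers of T, B and erythroid cells, were listed at 0 in all samples, but HBA1 reached 8.55 TPM in MONO-MAC-6. PECAM1, an endothelial marker that myeloid cells also carry, was lower with DMSO (up to 124 TPM) than with A9 (up to 217 TPM) in that line, while CDH5 was under 1 TPM. The myeloid genes themselves differed with A9, and their part in the results below was not tested: LYZ (lysozyme) rose in both lines, by 1.29 (MOLM-13) and 1.17 (MONO-MAC-6) on the log2 scale (adjusted p from limma 0.00517 and 0.00274), and CD14 and SPI1 rose in MONO-MAC-6. One sample stood apart. In MONO-MAC-6 DMSO sample 1 the median gene lay 0.23 below the DMSO mean on the log2 scale, while the genes of cytosolic ribosomal proteins summed to 263997 TPM, against 197608 and 191951 TPM in the other DMSO samples. The main results for the members in MONO-MAC-6 are therefore given with and without it.

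Subunit mRNAs were among the abundant messages of both lines. The 89 nuclear members summed to 23956, 25843 and 27967 TPM with DMSO and 25938, 25138 and 28761 TPM with A9 in MOLM-13, and to 34299, 26252 and 26508 TPM with DMSO and 24604, 24397 and 24805 TPM with A9 in MONO-MAC-6. In MOLM-13 the treatment groups overlapped, and in MONO-MAC-6 every A9 sample was below every DMSO sample, with DMSO sample 1 far above the rest. The 13 mitochondrial genes summed to 57080.1, 55122 and 48723 TPM with DMSO and 57713, 52137 and 54192 TPM with A9 in MOLM-13, and to 61248, 94436 and 87636 TPM with DMSO and 91466, 91623 and 93886 TPM with A9 in MONO-MAC-6. There the order was the opposite, with DMSO sample 1 far below the other 5 samples, which overlapped. The ratio of the mitochondrial to the nuclear sum was 2.38, 2.13 and 1.74 with DMSO and 2.23, 2.07 and 1.88 with A9 in MOLM-13. In MONO-MAC-6 the same ratio was 1.79, 3.60 and 3.31 with DMSO and 3.72, 3.76 and 3.79 with A9. Without DMSO sample 1 the mean ratio was 3.45 with DMSO and 3.75 with A9, 1.09 times as high, against 1.30 times with all samples. The ratio was also taken for each of the 4 complexes with subunits of both genomes. In MONO-MAC-6 the ratio for complex I was 2.09, 4.84 and 4.48 with DMSO and 5.11, 5.27 and 5.19 with A9. For complex III it was 0.495, 0.984 and 0.887 with DMSO and 0.974, 0.986 and 1.06 with A9. For complex IV, where mitochondrial mRNAs outweighed nuclear ones the most, it was 3.78, 6.61 and 5.96 with DMSO and 6.63, 6.62 and 6.81 with A9. In all 3 DMSO sample 1 was far below the rest, and so it was for complex V, at 0.618, 1.66 and 1.59 with DMSO and 1.79, 1.75 and 1.75 with A9. Complexes I, IV and V had every A9 sample above every DMSO sample, and without DMSO sample 1 the A9 mean was 1.11, 1.08, 1.06 and 1.08 times the DMSO mean for complexes I, III, IV and V. In MOLM-13 the groups overlapped for all 4 complexes. In bulk RNA, fewer cells of a kind, fewer mitochondria per cell and less RNA per mitochondrion cannot be told apart. The libraries were poly(A)-selected, and most mitochondrial mRNAs carry short poly(A) tails.

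**Figure D1:**
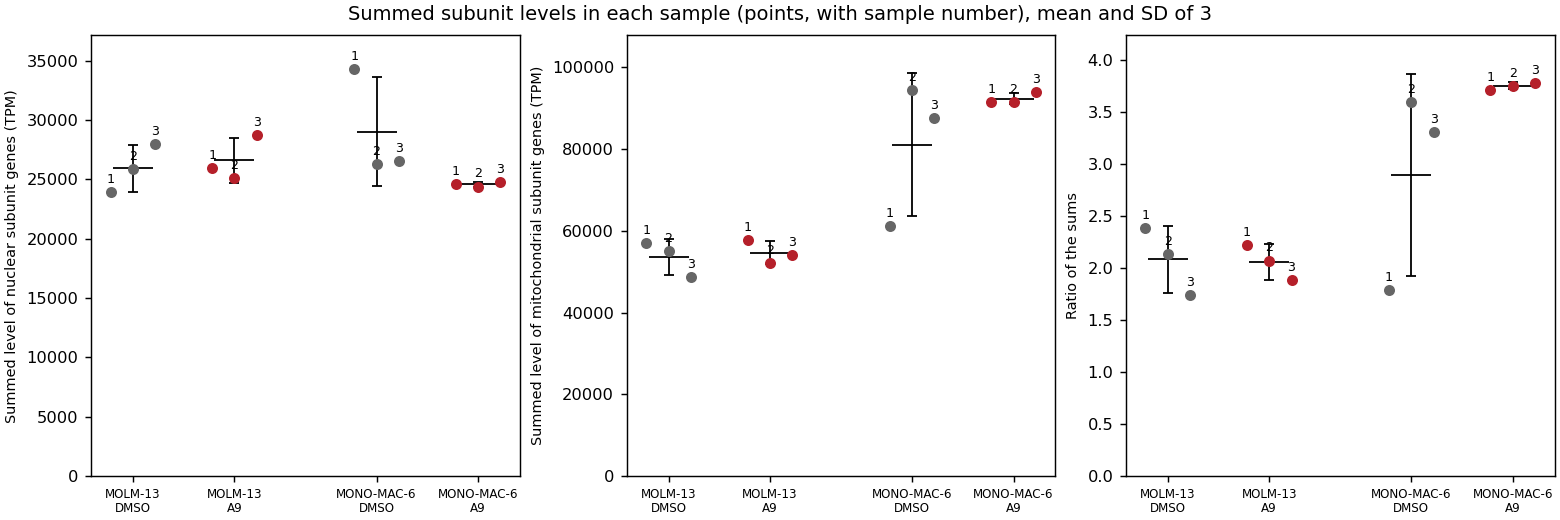
Summed TPM of nuclear and of mitochondrial subunit genes (y axes, linear from 0) and their ratio in each of the 12 samples, by line and treatment; bars are the mean and SD of 3 samples. DMSO sample 1 of MONO-MAC-6 has the highest nuclear sum, 34299 TPM, and a ratio of 1.79, while the 3 A9 samples of that line lie between 3.72 and 3.79.

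Of the 104 members 98 reached a group mean of 1 TPM and were tested in each line, 83 nuclear, 13 mitochondrial and both readthrough genes. The other 6 (ATP5MGL, COX4I2, COX6A2, COX6B2, COX7B2 and UQCRHL) were under this level in both lines. With A9 against DMSO, none of the 98 passed an adjusted p of 0.05 in either line by limma over all genes, where 0.121% of the 11602 genes tested passed in MOLM-13 and 3.36% of 12876 in MONO-MAC-6. At an unadjusted p under 0.05 there was 1 member in MOLM-13 (7.89% of all genes tested) and there were 16 of 98 in MONO-MAC-6 (20.4%), so that neither count stood above the share over all genes. The lines differed in how the members lay. In MOLM-13 every A9 sample was above every DMSO sample for 1 of the 98 members (8.58% of all genes tested) and below for 6 (6.42%). In MONO-MAC-6 the A9 samples were above for 7 of the 98 (27.2% of all genes tested) and below for 41 (10.7%), and all 41 were nuclear. The median log2 change of the nuclear set was 0.05 in MOLM-13 (58 positive, 25 negative), where the median of all genes was -0.05. It was -0.21 in MONO-MAC-6 (15 positive, 68 negative), where that of all genes was 0.16. The mitochondrial set had medians of 0.05 (8 positive, 5 negative) and 0.24 (12 positive, 1 negative). Over all genes tested 4501 were positive and 7101 negative in MOLM-13, and 9073 positive and 3803 negative in MONO-MAC-6.

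**Figure D2:**
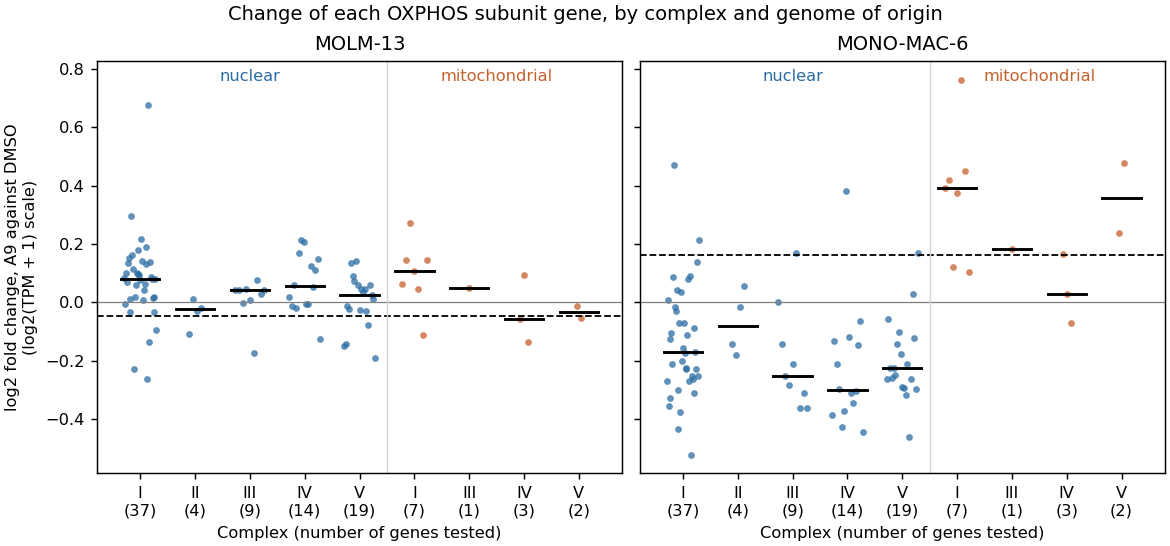
log2 fold change, A9 against DMSO, on the log2(TPM + 1) scale (y axis) of each tested subunit gene (points), by complex and genome of origin (x axis, number of genes in brackets); black bars are medians and the dashed line is the median of all genes tested. In MONO-MAC-6 the nuclear medians lie between -0.30 and -0.08 and those of the mitochondrial genes between 0.03 and 0.39; in MOLM-13 all lie between -0.06 and 0.11.

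In MOLM-13 no complex stood out. The nuclear medians were 0.08 for complex I, -0.02 for II, 0.04 for III, 0.06 for IV and 0.03 for V. The member with the smallest p was NDUFA9, an accessory subunit next to the quinone site of complex I, at 96.3, 101 and 98.9 TPM with DMSO and 87.6, 86.8 and 78.1 TPM with A9. Every A9 sample was lower, with a log2 change of -0.23 (SE 0.07; adjusted p = 0.384, limma), which did not pass. NDUFB5, an accessory subunit of the membrane arm, was the only member with every A9 sample above, at 108, 117 and 125 TPM with DMSO and 131, 126 and 151 TPM with A9, a log2 change of 0.22 (SE 0.09; adjusted p = 0.644, limma). MT-ND3, a core subunit of the same complex, was at 3458, 3761 and 3913 TPM with DMSO and 4401, 3884 and 5233 TPM with A9, with overlapping groups and a log2 change of 0.27 (SE 0.12; adjusted p = 0.655, limma). ATP5F1B, the catalytic beta subunit of ATP synthase and the most abundant nuclear member in MOLM-13, was at 1384, 1345 and 1306 TPM with DMSO and 1305, 1277 and 1088 TPM with A9. Its A9 samples were all lower, but the log2 change of -0.14 (SE 0.08; adjusted p = 0.785, limma) did not pass. ATP5F1A, the alpha subunit, SDHA, ATP5S and the mitochondrial MT-CO3 were also separate and lower, with adjusted p between 0.726 and 0.775.

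The leading nuclear members of the other complexes in MOLM-13 overlapped between the groups. NDUFA13 (complex I, accessory, also called GRIM-19) was at 632, 702 and 775 TPM with DMSO and 733, 720.2 and 865 TPM with A9. SDHD, a membrane anchor of succinate dehydrogenase, was at 194, 212 and 211 TPM with DMSO and 203, 195 and 211 TPM with A9. In both genes the A9 values reached into the DMSO range. UQCRH, the hinge protein that helps cytochrome c1 pass electrons on, was at 918, 1010.1 and 1108 TPM with DMSO and 985, 955 and 1158 TPM with A9. COX6B1, a subunit of complex IV on the intermembrane side, was at 1035, 1114 and 1258 TPM with DMSO and 1242, 1206 and 1376 TPM with A9. In each of these 4 genes sample 3 was the highest or next to highest of its group, and their log2 fold changes were 0.14, -0.02, 0.03 and 0.17.

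In MONO-MAC-6 nuclear members lay lower with A9 in all 5 complexes, with single genes going the other way mostly in complex I. Complex I oxidises NADH; its nuclear subunits summed to 11302, 8318 and 8268 TPM with DMSO and 8050.2, 7833 and 8090.4 TPM with A9. Of its 37 nuclear members 14 had every A9 sample below and 4 had every A9 sample above, and the median was -0.17. The single genes ranged from -0.52 to 0.47 on the log2 scale. NDUFA13, its most abundant member, was at 1721, 1031 and 1074 TPM with DMSO and 983, 974 and 1005 TPM with A9, so DMSO sample 1 alone carried most of the gap. NDUFB1, an accessory subunit of the membrane arm, was at 487, 342 and 340.0 TPM with DMSO and 287, 279 and 286 TPM with A9, a log2 change of -0.43 (SE 0.15; adjusted p = 0.187, limma). The 4 that lay above were NDUFV1, which binds FMN and NADH, the accessory subunits NDUFA5 and NDUFV3, and NDUFA6. NDUFV1 was at 227, 201 and 200.2 TPM with DMSO and 230.2, 231 and 228 TPM with A9. NDUFA6, an accessory subunit that holds the acyl carrier protein, had the smallest p of complex I at 0.866, 0.926 and 0.802 TPM with DMSO and 1.44, 1.39 and 1.97 TPM with A9, a log2 change of 0.47 (SE 0.13; adjusted p = 0.119, limma). Its level covers only the transcripts matched to the annotation, as does the low level of NDUFA3, and is close to the filter.

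Complex II, which oxidises succinate and has no mitochondrial subunit, had the median nearest to 0 in MONO-MAC-6 with all samples, and complex I had it without DMSO sample 1. Its 4 members summed to 686, 693 and 691 TPM with DMSO and 667, 642 and 668 TPM with A9, with a median of -0.08. SDHD, its most abundant member, was at 163, 204 and 189 TPM with DMSO and 192, 190.3 and 194 TPM with A9, with overlapping groups. SDHA, the flavoprotein that binds succinate, was at 134, 136 and 145 TPM with DMSO and 127, 124 and 125 TPM with A9, and its A9 samples were all lower, with a log2 change of -0.14 (SE 0.07; adjusted p = 0.305, limma).

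Complex III passes electrons from ubiquinol to cytochrome c. Its nuclear members summed to 3986, 3111 and 3186 TPM with DMSO and 2907, 2931 and 2882 TPM with A9 in MONO-MAC-6, and 5 of the 9 tested had every A9 sample below. UQCRH was at 1529.7, 1138 and 1103 TPM with DMSO and 999, 1029.9 and 979.9 TPM with A9, a log2 change of -0.31 (SE 0.14; adjusted p = 0.266, limma). UQCRFS1, the Rieske iron-sulfur protein, had the smallest p of this complex, at 92.3, 72.2 and 71.9 TPM with DMSO and 62.3, 60.1 and 59.6 TPM with A9, a log2 change of -0.36 (SE 0.12; adjusted p = 0.166, limma). CYC1, cytochrome c1, had overlapping groups, at 379, 355 and 398 TPM with DMSO and 384, 360.1 and 388 TPM with A9. UQCRC2, a core protein, lay in the other direction with a log2 change of 0.17. That sign rested on DMSO sample 1, at 134 TPM against 182 and 209.5 TPM in the other DMSO samples and 193 to 196 TPM with A9, and without that sample the log2 change was -0.01.

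Complex IV, cytochrome c oxidase, had the lowest nuclear median in MONO-MAC-6, -0.30, and 8 of its 14 tested nuclear members lay below in every A9 sample. Its nuclear members summed to 7679, 5579 and 5706 TPM with DMSO and 5014, 5067 and 5096 TPM with A9. The single genes ranged from -0.44 to 0.38 on the log2 scale. COX6B1 was the most abundant nuclear member of the line, at 2165, 1482 and 1585 TPM with DMSO and 1234, 1281 and 1322 TPM with A9. All A9 samples were lower, and the log2 fold change was -0.43 (SE 0.15; adjusted p = 0.193, limma). COX7A2L, a COX7A-like protein known for joining complex III and complex IV, was at 106, 98.1 and 89.6 TPM with DMSO and 83.3, 76.8 and 75.9 TPM with A9, a log2 change of -0.31 (SE 0.09; adjusted p = 0.142, limma). COX4I1, the regulatory subunit that binds ATP, was at 847, 569 and 577 TPM with DMSO and 499, 493 and 506 TPM with A9, with a log2 change of -0.39 (SE 0.16; adjusted p = 0.246, limma). None of them passed.

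Complex V had the largest share of separate nuclear members among the complexes, 12 of 19, all lower. Its nuclear members summed to 10645, 8550.0 and 8656 TPM with DMSO and 7966, 7924 and 8068 TPM with A9 in MONO-MAC-6, and the median was -0.23. The single genes ranged from -0.46 to 0.17 on the log2 scale. ATP5F1A had the smallest p of all members, at 492, 479 and 506 TPM with DMSO and 416, 399 and 416 TPM with A9, and DMSO sample 1 lay between the other DMSO samples. Its log2 fold change was -0.26 (SE 0.07; adjusted p = 0.108, limma). ATP5MPL, a small membrane protein that associates with ATP synthase, was at 227, 164 and 171 TPM with DMSO and 133, 133 and 136 TPM with A9, a log2 change of -0.46 (SE 0.13; adjusted p = 0.134, limma). ATP5MF, subunit f of the membrane part and the most abundant nuclear member of complex V, was at 1171, 959.7 and 986 TPM with DMSO and 808, 834 and 850.0 TPM with A9, a log2 change of -0.32 (SE 0.10; adjusted p = 0.151, limma). ATP5IF1, the inhibitor that blocks ATP hydrolysis by the enzyme, lay 0.25 lower on the same scale, at 230.4, 198 and 199 TPM with DMSO and 177, 174 and 175 TPM with A9. ATP5F1B did not separate: it was at 710.0, 893 and 945 TPM with DMSO and 819.5, 799 and 812 TPM with A9, with DMSO sample 1 the lowest of the 6 and the other DMSO samples above all A9 samples. The 3 genes of the rotating c ring, ATP5MC1, ATP5MC2 and ATP5MC3, had log2 changes of -0.14, -0.10 and -0.18, and groups that overlapped for the first pair. Without DMSO sample 1 these were 0.03, -0.02 and -0.05.

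Leaving out DMSO sample 1 of MONO-MAC-6 brought 66 of the 83 nuclear log2 changes nearer to 0 and 17 farther from it, and 13 changed sign, 9 of them in complex I. With 2 DMSO and 3 A9 samples, 30 members passed the adjusted p of 0.05 by limma, 25 lower (10.3% of 12931 genes tested were lower) and 5 higher (14.5%). Of the 83 nuclear members 24 were lower and 4 higher, and their median was -0.08, with 0.03 over all genes. The medians of complexes I to V were -0.03, -0.06, -0.14, -0.15 and -0.10. In complex V 8 of 19 fell, in complex IV 6 of 14, in complex III 5 of 9, in complex II 1 of 4, and in complex I 4 of 37, where 4 rose. ATP5MPL fell by 0.31 on the log2 scale (SE 0.04; adjusted p = 0.00167, limma), ATP5F1A by 0.26 (adjusted p = 0.00376), COX6B1 by 0.26 (adjusted p = 0.00487), NDUFB1 by 0.26 (adjusted p = 0.00215), UQCRFS1 by 0.24 (adjusted p = 0.00799) and SDHA by 0.17 (adjusted p = 0.0334). The 4 nuclear members that rose, NDUFV1, NDUFA6, NDUFB2 and NDUFC1, were all of complex I, with log2 changes of 0.20, 0.47, 0.23 and 0.20. Some single values moved by more than 1.5 times: without that sample the log2 change was -0.09 for NDUFA13, -0.16 for UQCRH, -0.20 for COX4I1, -0.18 for ATP5F1B and 0.10 for MT-ND1. Of the mitochondrial genes MT-ND2 rose, with a log2 change of 0.14 (SE 0.04; adjusted p = 0.0253, limma), and MT-CO3 fell, with one of -0.13 (SE 0.04; adjusted p = 0.0334, limma). This fit rests on leaving out a sample chosen because it stood apart, so its calls are not those of the design. Leaving out any other sample of the line gave 0 calls by limma, with 3 to 24 members at an unadjusted p under 0.05. For these fits the share of all genes at that p was not taken.

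**Figure D3:**
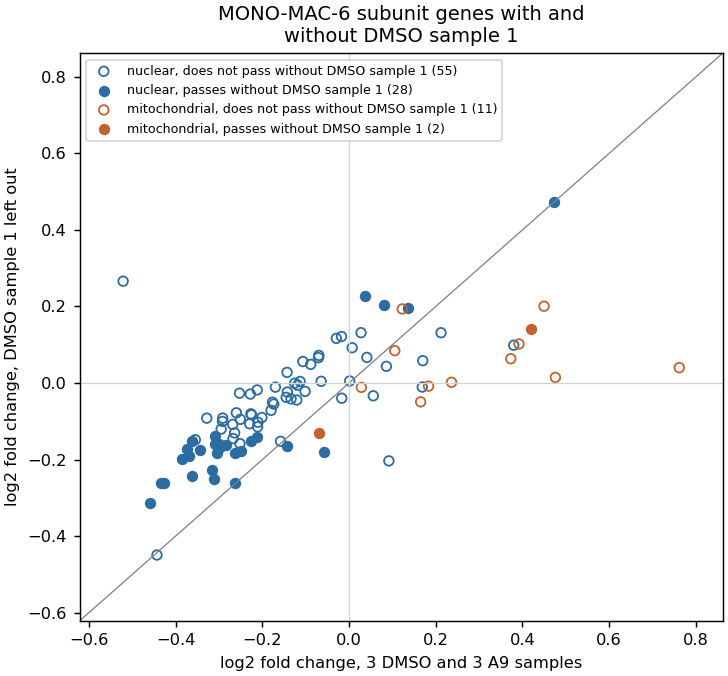
log2 fold change, A9 against DMSO, in MONO-MAC-6 of each tested subunit gene with all 6 samples (x axis) and with DMSO sample 1 left out (y axis), on the log2(TPM + 1) scale; filled points pass an adjusted p of 0.05 in the fit without that sample, and the grey diagonal marks equal values. Most nuclear genes lie above the diagonal in the lower left, closer to 0 without the sample, and most mitochondrial genes move from the right towards 0.

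Nuclear subunit mRNAs are short. The median length of the 83 tested nuclear members was 773 bases in MONO-MAC-6, against 2026 bases over all genes tested, and log2 fold change and length had a Spearman rho of 0.25 over all genes and 0.30 over the nuclear members, given as a description over genes that share samples. In MOLM-13 both were negative, -0.32 and -0.27. Without the trend on length the MONO-MAC-6 nuclear median was -0.14, and 2 members passed, ATP5MF and ATP5MPL, both lower. Over all 12876 genes tested, 417 were then higher and 199 lower. The summed TPM of other short genes had a higher mean with A9, though the treatment groups overlapped with all samples included. Such a sum can rest on a few abundant genes, so it does not describe short genes gene by gene. Genes under 1000 bases outside the members, the ribosomal protein genes and the mitochondrial pseudogenes summed to 172299, 155020.0 and 152364 TPM with DMSO and 167849, 173047 and 173043 TPM with A9, 1.11 times as high with A9 when DMSO sample 1 was left out, where the nuclear members were at 0.933 times. Genes of cytosolic ribosomal proteins lay lower with A9 too, summing to 263997, 197608 and 191951 TPM with DMSO and 172425, 173691 and 173146 TPM with A9, 0.889 times without that sample. Their part in the lower values of the members was not tested.

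In MOLM-13 the highest mitochondrial genes were MT-CO2, a complex IV core subunit that takes electrons from cytochrome c at a copper centre, and MT-CO3, which completes that core. MT-CO2 was at 8155, 8382 and 8301 TPM with DMSO and 9317, 8110.2 and 9099.5 TPM with A9. MT-CO3 was at 8394, 8520.5 and 7916 TPM with DMSO and 7746, 7032 and 7812 TPM with A9, lower in every A9 sample by 0.14 on the log2 scale (adjusted p = 0.726, limma), which did not pass. The other 12 overlapped between the groups in MOLM-13, and the medians were 0.11 for the 7 MT-ND genes, 0.05 for MT-CYB, -0.06 for the 3 MT-CO genes and -0.03 for the 2 ATP synthase genes.

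In MONO-MAC-6, 12 of the 13 mitochondrial genes had a positive log2 fold change, and none passed. Most genes did so in this line: 9073 of 12876 were positive, with a median of 0.16, against 0.24 for the mitochondrial set. The median was 0.39 for the MT-ND genes, 0.18 for MT-CYB, 0.03 for the MT-CO genes and 0.36 for MT-ATP6 and MT-ATP8. MT-ND1, a core subunit near the quinone site, was at 3427, 6528 and 6014 TPM with DMSO and 6590.0, 6667 and 6923 TPM with A9. MT-ND2, part of the proton-pumping arm, was at 1649, 2969 and 2923 TPM with DMSO and 3139, 3291 and 3319 TPM with A9. MT-ND5, the largest mitochondrial subunit of that arm, was at 1367, 2483 and 2123 TPM with DMSO and 2602, 2621 and 2693 TPM with A9. These 3 had every A9 sample above every DMSO sample. DMSO sample 1 was the lowest by far in each, and the other DMSO samples lay just below the A9 samples. MT-ND4, another subunit of the pumping arm, was at 3443, 6828 and 6294 TPM with DMSO and 6716, 6802 and 7036 TPM with A9. MT-CYB, cytochrome b of complex III, was at 1975, 3062 and 2825 TPM with DMSO and 2831, 2888 and 3059 TPM with A9. Both overlapped. MT-CO1, which holds the oxygen-reducing centre, was at 6905, 11262 and 10331 TPM with DMSO and 10297, 10523 and 10454 TPM with A9. MT-CO2 was at 10269, 11687 and 10643 TPM with DMSO and 10737, 10729 and 11762 TPM with A9. MT-CO3 was at 11886, 13936 and 13034 TPM with DMSO and 12190.1, 12300.5 and 12469.9 TPM with A9. All 3 again had their lowest value in DMSO sample 1, with a smaller gap for MT-CO2 and MT-CO3, and all overlapped. MT-ATP6, the subunit of the proton channel, was at 3248, 5501 and 5087 TPM with DMSO and 5148, 5189 and 5564 TPM with A9. MT-ATP8, its neighbour, was at 3329, 8685 and 8701 TPM with DMSO and 9114, 8688 and 8552 TPM with A9. In 2 genes DMSO sample 1 was not the lowest. MT-ND3 was at 8513, 8307 and 6497 TPM with DMSO and 8471, 8609.8 and 8129.7 TPM with A9. MT-ND6, the only member encoded on the light strand, was at 3010.0, 3545 and 2788 TPM with DMSO and 3372, 3165 and 3472 TPM with A9. Both had their lowest value in DMSO sample 3. Without DMSO sample 1 the mitochondrial median was 0.04 (9 positive, 4 negative), where that of all genes was 0.03.

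**Figure D4:**
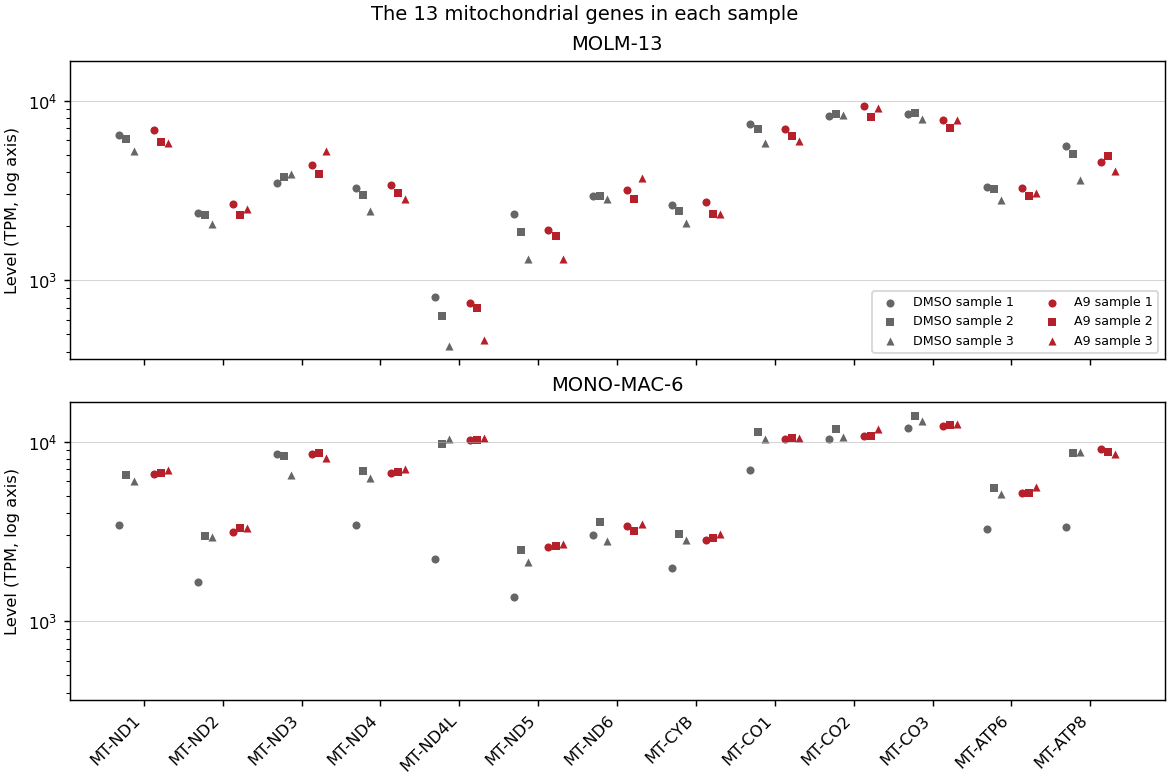
TPM of the 13 mitochondrial genes (y axis, log scale) in each sample of both lines; grey points are DMSO, red points A9, and the symbol shows the sample number. In MONO-MAC-6 the grey circle, DMSO sample 1, is the lowest point for all of them except MT-ND3 and MT-ND6, and MT-ND4L is the gene that differs most between the lines.

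MT-ND4L set the lines apart, within the limit that the tables of the lines are separate and may have been normalized separately. It was at 806, 634 and 433 TPM with DMSO and 746, 697 and 467 TPM with A9 in MOLM-13. It was at 2229.5, 9643 and 10377 TPM with DMSO and 10257, 10149.8 and 10452 TPM with A9 in MONO-MAC-6. Its ratio to MT-ND4, with which it shares an mRNA, was 0.247, 0.212 and 0.178 with DMSO and 0.220, 0.227 and 0.164 with A9 in MOLM-13. In MONO-MAC-6 the ratio was 0.648, 1.41 and 1.65 with DMSO and 1.53, 1.49 and 1.49 with A9, so all 6 samples lay above all 6 of MOLM-13. The other overlapping pair did not do this: MT-ATP8 to MT-ATP6 was 1.68, 1.56 and 1.29 with DMSO and 1.40, 1.66 and 1.33 with A9 in MOLM-13, and it was 1.03, 1.58 and 1.71 with DMSO and 1.77, 1.67 and 1.54 with A9 in MONO-MAC-6. A ratio within a sample does not depend on how the tables were scaled. It does depend on how the quantification divided reads between the paired transcripts, and the part of this in the gap was not tested. Among the nuclear copies of mitochondrial genes MTND2P28, which shares 56.9% of the words of MT-ND2, was at 3.47, 3.08 and 2.27 TPM with DMSO and 3.73, 3.04 and 2.24 TPM with A9 in MOLM-13. In MONO-MAC-6 it was at 255, 389 and 391 TPM with DMSO and 475, 406 and 436 TPM with A9, so that every A9 sample was above. Over all such copies the sum was 0.554% to 0.674% of copies plus members in MOLM-13 and 1.03% to 1.18% in MONO-MAC-6, with overlapping treatment groups in each line.

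Whether the A9 contrast differed between MOLM-13 and MONO-MAC-6 was tested as an interaction over all 12 samples. None of the 98 members passed (2.99% of 13417 genes did), and 17 of 98 had an unadjusted p under 0.05, all nuclear, near the share of 17.7% over all genes. The median difference, MONO-MAC-6 minus MOLM-13, was -0.24 for nuclear members and 0.25 for mitochondrial members, where that of all genes was 0.20. COX6B1 had the smallest p, with a difference of -0.60 (SE 0.18; adjusted p = 0.137, limma), since its log2 change was 0.17 for MOLM-13 but -0.43 for MONO-MAC-6. NDUFA9, the member with the smallest p in MOLM-13, had log2 changes of -0.23 and 0.04, a difference of 0.27 (adjusted p = 0.174). Without DMSO sample 1 of MONO-MAC-6 there were still 0 calls, and 8 of 98 members had an unadjusted p under 0.05 (17.1% of all genes did).

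Several subunits exist as paralogs that tissues use in place of one another, and in both lines the common form dominated. COX4I1 was at 973, 1049 and 1189.6 TPM with DMSO and 1019.8, 1036 and 1192 TPM with A9 in MOLM-13, while COX4I2, the form known from lung and low oxygen, was listed at 0 in all samples but 1, where it was at 0.0400 TPM. COX6A1 ranged from 502 to 797 TPM in MONO-MAC-6, and the muscle form COX6A2 reached at most 0.229 TPM. COX6B2, the testis form of COX6B1, stayed between 0.370 and 0.660 TPM in MONO-MAC-6. COX7A2 was at 63.0, 54.0 and 45.5 TPM with DMSO and 53.2, 49.0 and 46.2 TPM with A9 there. COX7A1, the heart and muscle form, was at 0.585, 1.81 and 1.88 TPM with DMSO and 2.51, 2.14 and 1.56 TPM with A9. COX7B ranged from 85.0 to 145 TPM, and COX7B2 from 0 to 0.0510 TPM. UQCRHL, an intronless copy of UQCRH that holds 43.9% of the words of UQCRH, reached 1.10 TPM. NDUFA4L2, a gene known to respond to low oxygen, was at 10.2, 10.5 and 11.7 TPM with DMSO and 9.21, 12.45 and 8.16 TPM with A9 in MOLM-13. In MONO-MAC-6 it was at 1.94, 2.03 and 1.93 TPM with DMSO and 1.27, 0.555 and 1.94 TPM with A9, lower than in MOLM-13 in every sample. The common form NDUFA4 was at 62.6, 65.6 and 69.1 TPM with DMSO and 73.3, 66.3 and 79.98 TPM with A9 in MOLM-13. In MONO-MAC-6 it was at 126, 106 and 112 TPM with DMSO and 107, 114 and 107 TPM with A9, with overlapping groups. None of the tested forms passed. C15orf48, which can replace NDUFA4 in inflammation, was under 1 TPM in every sample, as was COX8C. In MONO-MAC-6 its share of C15orf48 plus NDUFA4 was 0.358%, 0.184% and 0.234% with DMSO and 0.611%, 0.698% and 0.810% with A9. Every A9 sample was thus higher there, at a level under the filter that was not tested, and in MOLM-13 the groups overlapped.

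Genes around the complexes were taken as 6 lists, whose medians stand beside -0.05 (MOLM-13) and 0.16 (MONO-MAC-6) over all genes. Of the 50 assembly factors 0 passed in either line, with medians of 0.02 (MOLM-13) and 0.02 (MONO-MAC-6). Of 26 genes that express the mitochondrial genome 0 passed, with medians of -0.13 and 0.07. Of 77 tested proteins of the mitochondrial ribosome 0 passed, with medians of 0.02 and -0.13. In MONO-MAC-6, 30 of these 77 had every A9 sample below every DMSO sample and 3 above, against the 10.7% and 27.2% of all genes. The medians and counts of all 6 lists in that line include DMSO sample 1 and were not taken without it. The 13 enzymes of the TCA cycle (0 passed) had medians of -0.15 and 0.07, and the 7 tested carriers and cytochrome c (0 passed) had -0.05 and -0.10. Against shares of 7.89% (MOLM-13) and 20.4% (MONO-MAC-6) of all genes, the counts at an unadjusted p under 0.05 were 5 and 9 for assembly factors, 5 and 2 for mitochondrial genome expression, 4 and 14 for the mitochondrial ribosome, 0 and 2 for the TCA cycle and 0 and 1 for carriers. Of the 7 tested nuclear regulators 1 passed, in MONO-MAC-6: ESRRA, a nuclear receptor that drives mitochondrial genes, was at 40.6, 40.3 and 45.1 TPM with DMSO and 58.7, 59.0 and 59.8 TPM with A9, a log2 change of 0.49 (SE 0.08; adjusted p = 0.0347, limma). In MOLM-13 it was at 51.8, 47.9 and 54.8 TPM with DMSO and 54.8, 53.8 and 51.1 TPM with A9. All its A9 samples lay higher in MONO-MAC-6, which is the opposite direction to the nuclear members there. This call was lost under median-ratio scaling (log2 fold change 0.31) and, among 14 alternatives, with the replicate block, no filter, the highest isoform, or any 1 sample left out other than DMSO sample 1. Without A9 sample 1, 2 or 3 its adjusted p by limma was 0.177, 0.213 and 0.226, and without DMSO sample 2 or 3 it was 0.126 and 0.0580. The regulators' medians were -0.12 and 0.25. PPARGC1A, the coactivator PGC-1alpha, was under 1 TPM in all samples.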

How the data were processed

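RNA of 36 libraries was measured by poly(A)-selected paired-end sequencing, per the labels' protocols. The submitters' processing notes name kallisto, limma and GRCh38, with no versions or roles. The deposited values are TPM per transcript, made by the authors, and each library sums to 1000000. Depth is unknown, so no counting interval is given. Of the 207175 transcripts listed, 162561 (78.5%) matched GENCODE 29 and were summed by gene, and they held 89.9% to 91.4% of TPM; the other transcripts were not used.

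The first number of a title was taken as the sample and the second as a repeat library; repeats were averaged on TPM. Genes that reached a group mean of 1 TPM were tested on log2(TPM + 1), so fold changes of low genes are understated, with limma 3.58.1 in R 4.3.3 (lmFit, eBayes with trend and robust), per line and as a line by treatment interaction. P-values are two-sided and Benjamini-Hochberg adjusted over all genes, with a threshold of 0.05. The method was run on simulated data with independent noise per gene and changes larger than those of the members. That run does not bear on changes as small as theirs or on a shift shared by many genes. 

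The members, lists and tests were chosen with earlier results of these data known. Values per sample are given for the 13 mitochondrial genes, the nuclear member with the highest TPM per complex and line, the listed paralogs (some as ranges), members past the threshold, and, since fewer than 3 passed, the 3 with the smallest p per line. Further members with the smallest p in their complex, contrasting members and NRF1 and GABPA were added after their values were seen. Alternatives were a pseudocount of 0.1, no filter, median-ratio scaling, removal of the trend on transcript length, TPM rescaled without mitochondrial transcripts, the highest isoform, each library as a sample, the title's first number as a replicate block, and samples left out in turn. Python 3.11.15 with pandas 2.3.3 and matplotlib 3.10.9 served for the rest.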

Additional observations from a re-analysis of the deposited data

Results flagged for a closer look

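No subunit gene differed between the lines by the test of the difference, while 3 of the 180 tested genes of the lists around the complexes did (1.67%, against 2.99% of all genes). NDUFAF5 is an assembly factor that modifies a core subunit of complex I. In MOLM-13 NDUFAF5 was at 40.5, 38.2 and 38.9 TPM with DMSO and 27.6, 29.05 and 24.8 TPM with A9, and in MONO-MAC-6 at 25.1, 23.5 and 23.0 and 28.01, 27.1 and 27.7 TPM. The log2 fold changes were -0.52 and 0.20, a difference of 0.72 (SE 0.11; adjusted p = 0.00515, limma; range over 20 alternatives 3.08e-08 to 0.569, past the threshold in 18). It lay lower in every A9 sample of MOLM-13 and higher in every A9 sample of MONO-MAC-6, and the call was lost with its highest isoform alone (difference 0.23) and with median-ratio scaling (difference 0.50).

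In MOLM-13 ESRRA was at 51.8, 47.9 and 54.8 TPM with DMSO and 54.8, 53.8 and 51.1 TPM with A9, and in MONO-MAC-6 at 40.6, 40.3 and 45.1 and 58.7, 59.0 and 59.8 TPM. The log2 fold changes were 0.05 and 0.49, a difference of 0.44 (SE 0.10; adjusted p = 0.0454, limma; range over 20 alternatives 1.04e-06 to 0.463, past the threshold in 5).

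MRPL57 is a protein of the mitochondrial ribosome. In MOLM-13 MRPL57 was at 35.2, 37.8 and 40.2 TPM with DMSO and 40.0, 42.1 and 46.5 TPM with A9, and in MONO-MAC-6 at 42.5, 37.9 and 38.2 and 32.5, 30.7 and 31.3 TPM. The log2 fold changes were 0.18 and -0.32, a difference of -0.50 (SE 0.12; adjusted p = 0.0484, limma; range over 20 alternatives 3.92e-08 to 0.171, past the threshold in 4). The calls of ESRRA and MRPL57 were each lost when most single samples of either line were left out (10 of 12 and 12 of 12). The dose differed between the lines, and for these 3 genes line and dose cannot be told apart.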

How the results depend on the processing

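Against 0 members past the threshold in each comparison as designed, treating each library as its own sample gave more. It gave 14 of 98 in MOLM-13 (9 higher, 5 lower), where 932 of all 11602 genes were higher and 809 lower. In MONO-MAC-6 it gave 51 (6 higher, 45 lower), where 4045 of 12876 genes were higher and 1541 lower. For the difference between the lines it gave 50 (5 higher, 45 lower), where 4047 of 13417 genes were higher and 1573 lower. These counts take repeat libraries as independent. Removing the trend on transcript length gave 2 in MONO-MAC-6 and 2 for the difference (COX6B1 and COX6C, lower). Over all genes that setting called 417 higher and 199 lower of 12876 in MONO-MAC-6. For the difference it called 279 higher and 173 lower of 13417. Leaving out samples gave 0 in MOLM-13, 0 for the difference, and 0 to 30 in MONO-MAC-6, the 30 without DMSO sample 1. All other alternatives gave 0. Median-ratio scaling moved the MONO-MAC-6 nuclear median to -0.39 and the mitochondrial median to 0.06, with the median of all genes at 0.01 in place of 0.16, so that the nuclear median stayed about as far below that of all genes (-0.39 in place of -0.37). The MONO-MAC-6 nuclear median was negative under all 14 alternatives, between -0.39 and -0.08, and the mitochondrial median positive under all 12. These are not separate checks. The replicate block cannot move the medians, and single libraries or the other pseudocount hardly did. Less the median of all genes, the nuclear median lay between -0.49 and -0.11 and the mitochondrial median between 0.01 and 0.20. Leaving out samples gave ranges of -0.26 to -0.08 and 0.04 to 0.38 for the nuclear and mitochondrial medians themselves. In MOLM-13 the ranges were -0.02 to 0.11 and -0.04 to 0.12, and the sign also turned without the length trend (-0.02 and -0.02). Not every same-numbered pair deviated together (correlations of 0.36, -0.08, 0.68 for MOLM-13, -0.03, 0.09, -0.09 for MONO-MAC-6). These values do not settle whether samples with the same number were paired, least of all in MOLM-13. The replicate block gave 0 member calls in all 3 comparisons by limma. It gave 13, 11 and 23 members at an unadjusted p under 0.05 in place of 1, 16 and 17, and the share of all genes at that p was not taken. Over all genes the block called 87, 94 and 207 by adjusted p in place of 14, 433 and 401. TPM hold no depth, which limits the precision known for low members such as NDUFA6.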
